A study of Mus musculus with 4 samples.

Results

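The assembled copy of the 45S ribosomal RNA repeat (Rn45s) lies on mouse chromosome 17, and its level of RNA polymerase II (Pol II) tags was followed in 4 chromatin immunoprecipitation sequencing libraries. A window of 30000 bp of chromosome 17 (build mm8) was read in 600 bins of 50 bp, and the locus within it spans 5850 bp. Its first-category tags lay at positions 39451051 to 39456848 of chromosome 17. The locus was chosen by its tag density, the highest of the series, so its height is a description and carries no test. On a grid of 500 bp it takes up 12 windows, of 3369877 windows in the genome that held a tag in any library. The name Rn45s came with the coordinates and was not checked against a sequence here.

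The 45S precursor is the long transcript from which the 18S, 5.8S and 28S ribosomal RNAs are cut. Its genes stand in tandem arrays that form the nucleolus, and they are transcribed by RNA polymerase I, not by Pol II. Arrays are mostly left out of assembled chromosomes, so that reads from many repeat units can pile up on a copy that is assembled. The RefSeq gene table of GRCm38.p6, another build, does not list Rn45s. On chromosome 17 it lists an 18S ribosomal RNA pseudogene, Rn18s-rs5, and the long noncoding RNA AY036118. Neither was matched to positions on mm8.

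All cells were V6.5 mouse embryonic stem cells of mixed C57BL/6-129 background, and all were given 1 µM flavopiridol for 1 h before fixation. Flavopiridol blocks Cdk9, whose kinase activity lets paused Pol II go on into the gene. A hairpin had acted for about 4 days: shSpt4 and shSpt5 target the subunits of DSIF, shNelfE targets a subunit of NELF, both of them complexes that hold Pol II near promoters, and shControl is a control hairpin. The antibody was raised against the N-terminus of Rpb1, the largest Pol II subunit. The knockdown cells had been grown for 2 passages without feeder cells and were sequenced on 1 flow cell. The control cells had been grown for 1 passage without feeders and were sequenced on another, so a difference from shControl cannot be told apart from one of flow cell or passage. Each group held 1 library, so no difference between conditions was tested. The intervals given are 95% intervals of counting error for these libraries, and PCR copies are not independent molecules. Knockdown was not checked in these data.

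The deposited first-category reads, those listed in the first of the 2 sections of each file, numbered from 2881229 in shSpt4 to 3788237 in shSpt5. Repeated positions made up 8.13% of them in shSpt4, 9.07% in shControl, 10.2% in shNelfE and 17.7% in shSpt5. Tags below are either kept tags, meaning 1 per position and strand, or all deposited tags. Both are scaled to 1000000 tags of their kind per library and then called normalised tags.

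The locus carried a block of tags with sharp borders. It held 4522 kept tags in shControl, 3715 in shNelfE, 3089 in shSpt4 and 2695 in shSpt5. With all tags the counts were 8103, 6032, 4380 and 4078 in the same order. The rest of the 30000 bp window was nearly empty. Its 24150 bp outside the locus held 17 kept tags in shControl, 10 in shNelfE, 14 in shSpt4 and 12 in shSpt5, and only 17 of its 483 bins held a kept tag in any library.

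In each library the highest deposited first-category position of the block was 39456847 or 39456848 on the plus strand and on the minus strand alike. Tags thus stopped at the same base on both strands, which places the deposited position at the left end of a read whatever its strand. Plus-strand tags were 49.6% of kept tags in shControl (48.1 to 51.0%), 49.2% in shNelfE (47.6 to 50.9%), 48.7% in shSpt4 (46.9 to 50.5%) and 48.3% in shSpt5 (46.4 to 50.2%). All 4 intervals included equal strands.

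The density of the locus stood far above the background of each library. In tiles of 10 kb with no enriched 500 bp window the kept tags per kb numbered 0.947 in shSpt5, 0.837 in shNelfE, 0.828 in shControl and 0.745 in shSpt4. Relative to these tiles the locus was 934-fold denser in shControl, 759-fold in shNelfE, 709-fold in shSpt4 and 487-fold in shSpt5. With all tags these values were 1550.1-fold, 1117-fold, 933-fold and 609-fold. The number of repeat units behind the assembled copy, the chromatin background on them and Pol II bound to them cannot be told apart from these counts. A whole cell extract library was not analysed here. Of the 10 windows of 500 bp with most normalised kept tags averaged over the libraries, 8 were in the locus. The densest elsewhere was on chromosome 6, 124706501 to 124707000, with a mean of 144 against 155 for the densest window of the locus. With all tags that window on chromosome 6 ranked first, at 231 against 223. By library, the window with most kept tags was in the locus in shControl (607 against 396 elsewhere) and shNelfE (491 against 436), and outside it in shSpt4 (469 against 410 in the locus) and shSpt5 (393 against 331).

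**Figure D1:**
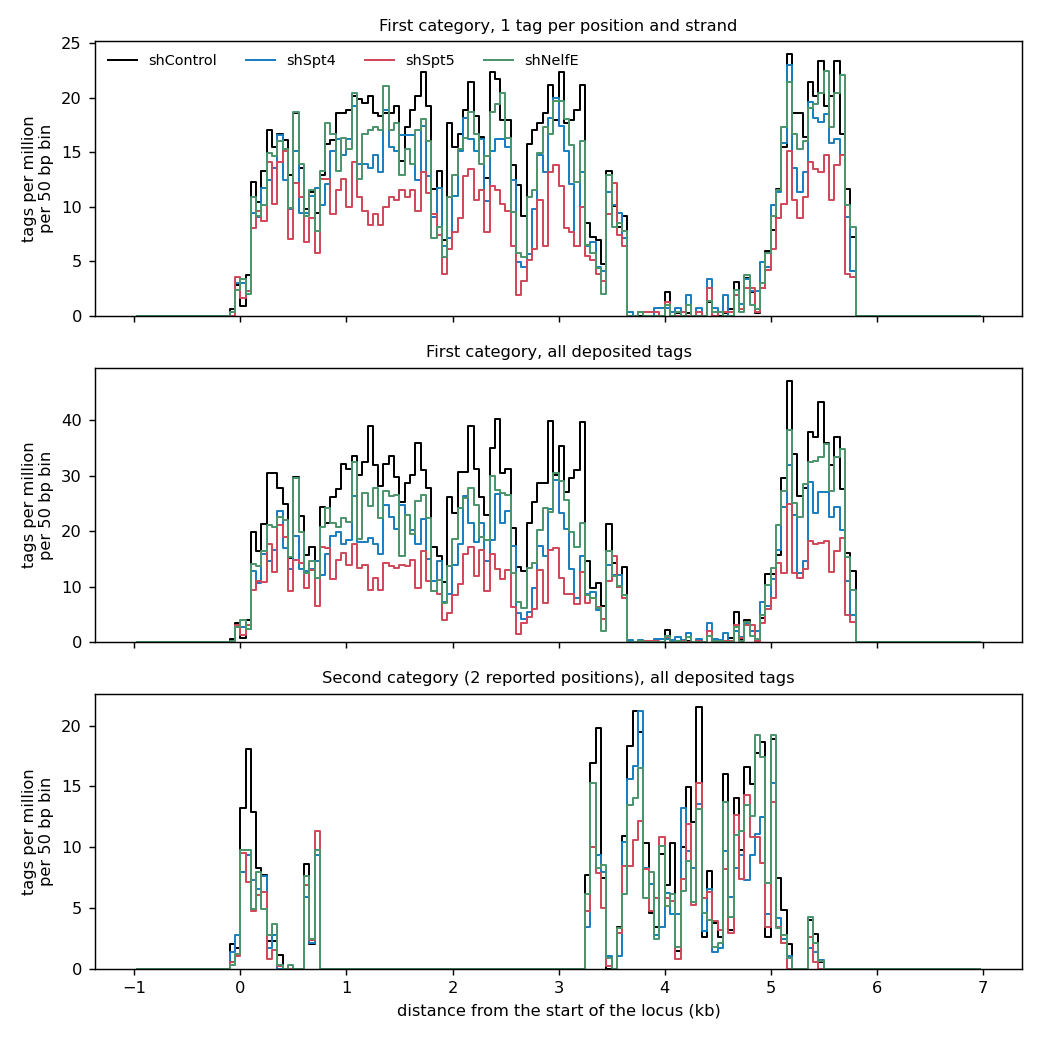
Normalised tags in 50 bp bins (vertical axes) against the distance from the start of the locus in kb, for the 4 libraries as coloured lines. The top panel shows first-category kept tags, the middle panel all first-category tags and the bottom panel second-category reads; first-category tags drop to almost none within a trough right of the middle, where second-category reads are found in every library.

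Within the locus the tags formed blocks that were parted by a trough and dipped in places. Over the 117 bins of the locus the median kept count was 45 in shControl, 37 in shNelfE, 30 in shSpt4 and 26 in shSpt5, and the highest bin had 76, 66, 61 and 47. The bin with most normalised kept tags was 39456251 to 39456300, near the right end, with 23.97 in shControl, 21.4 in shNelfE, 23.0 in shSpt4 and 15.1 in shSpt5. Of the next 4 bins, 3 lay beside it, between 39456451 and 39456650, and 1 at 39452151 to 39452200. The last had 20.2 normalised kept tags in shControl, 20.4 in shNelfE, 19.3 in shSpt4 and 14.1 in shSpt5. In all 5 bins shSpt5 was the lowest library. Tags were thus spread over the locus rather than gathered in 1 bin.

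The relief along the locus was shared by the libraries. Across the 117 bins, Pearson's r between kept counts of shControl and another library was 0.96 for shNelfE, 0.93 for shSpt4 and 0.90 for shSpt5. Spearman's rho was 0.92, 0.90 and 0.85. These are correlations across bins, which share the sequence and the positions where a read can align, and they are descriptions.

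First-category tags thinned out in the trough, 39454501 to 39456000, where second-category reads outnumbered them. Its first window, 39454501 to 39455000, still held 144 kept tags in shControl, 117 in shNelfE, 114 in shSpt4 and 123 in shSpt5, and the drop came within it. The window 39455001 to 39455500 held 9 kept tags in shControl, 7 in shNelfE, 17 in shSpt4 and 7 in shSpt5, beside 452, 398, 338 and 286 in the window 39456001 to 39456500. Second-category reads lay in the trough but did not fill it. In 39455001 to 39455500 there were 323 of them in shControl, 210 in shNelfE, 200 in shSpt4 and 282 in shSpt5. Over the whole trough they made up 78.0% of all tags of both categories in shControl, 79.0% in shNelfE, 75.5% in shSpt4 and 76.9% in shSpt5. Between 39452001 and 39454000 no second-category read was listed in any library.

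The headers do not say what a second-category read is, but the positions at the locus do. Of 5294 second-category lines at the locus in the 4 libraries together, 5225 (98.7%) had a partner position elsewhere with the same count in every library, at a fixed distance from the locus position or mirrored on it. A second-category read was thus listed at 2 positions, as the aligner's option of 2 reported hits allows. The partners fell on 9 chromosomes and were short. The largest ran from 3150767 to 3151620 on chromosome 6 in the same orientation, and paired with 39454731 to 39455584 of the locus through 2031 reads, 38.4% of those at the locus. An inverted stretch on chromosome 1, 56726591 to 56726886, took 17.1%, one on chromosome 16, 18446752 to 18446862, took 9.86%, and one on chromosome 11, 103888833 to 103889180, took 9.24%.

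Reads that could be placed at 1 position lay on the chromosome 17 copy in most of these pairs. The stretch on chromosome 11 had 2 first-category tags over the 4 libraries, against 942 in the matching part of the locus. On chromosome 1 the values were 0 and 140, and on a stretch of chromosome 4, 78245196 to 78245338, they were 0 and 292. The chromosome 6 partner differed, with 81 first-category tags against 78 in the matching part of the locus. Which copy the shared reads came from was not tested.

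Each knockdown library had fewer normalised tags at the locus than shControl, and shSpt5 had the fewest. Normalised kept tags were 1426 in shControl, 1264 in shNelfE, 1167 in shSpt4 and 865 in shSpt5. The ratio to shControl was 0.886 in shNelfE (0.849 to 0.926), 0.818 in shSpt4 (0.781 to 0.857) and 0.606 in shSpt5 (0.578 to 0.636). On the log2 scale these are -0.17, -0.29 and -0.72. With all tags the normalised levels were 2324 in shControl, 1843 in shNelfE, 1520.2 in shSpt4 and 1076 in shSpt5. The ratios then fell to 0.793 (0.767 to 0.820), 0.654 (0.630 to 0.679) and 0.463 (0.446 to 0.481). The order of the 4 libraries was the same under both counts, and each interval excluded 1.

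Among the knockdown libraries, which shared a flow cell, the order was shNelfE, shSpt4 and shSpt5. With kept tags shSpt5 was 0.741 of shSpt4 (0.703 to 0.781), shNelfE was 1.08 times shSpt4 (1.03 to 1.14) and 1.46 times shSpt5 (1.39 to 1.54). With all tags the values were 0.708 (0.678 to 0.739), 1.21 (1.17 to 1.26) and 1.71 (1.65 to 1.78). Under both counts neighbouring libraries in this order differed by more than counting error. Scaled by the median enriched window, shSpt5 over shSpt4 was 1.01 (0.956 to 1.06) and that step of the order was lost. With 1 library each, their spread between cultures is unknown.

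How far the libraries differed depended on how repeated positions were counted, and the locus was crowded. PCR copies and separate fragments at 1 position cannot be told apart in these files. The locus has 11700 combinations of position and strand. Kept tags filled 38.6% of them in shControl, 31.8% in shNelfE, 26.4% in shSpt4 and 23.0% in shSpt5. In the window 39452001 to 39452500 the filled share reached 60.7% in shControl, 49.1% in shNelfE, 41.0% in shSpt4 and 32.6% in shSpt5. The fullest library thus had the least room for further kept tags.

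Repeated tags were most frequent where the level was highest. Of the occupied position-strands of shControl, 2383 held 1 tag, 1235 held 2 and 904 held 3 or more, with at most 9 at any of them. In shNelfE the numbers were 2181, 989 and 545, in shSpt4 2145, 684 and 260, and in shSpt5 1754, 633 and 308. Repeats made up 44.2% of all locus tags in shControl, 38.4% in shNelfE, 33.9% in shSpt5 and 29.5% in shSpt4. In raw counts, the numbers of position-strands with 1 tag were close among shControl, shNelfE and shSpt4. These 3 libraries parted mainly at positions with several tags. The counts are not scaled to depth, and the libraries held 3170090, 2938052 and 2646944 kept tags in the same order.

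**Figure D2:**
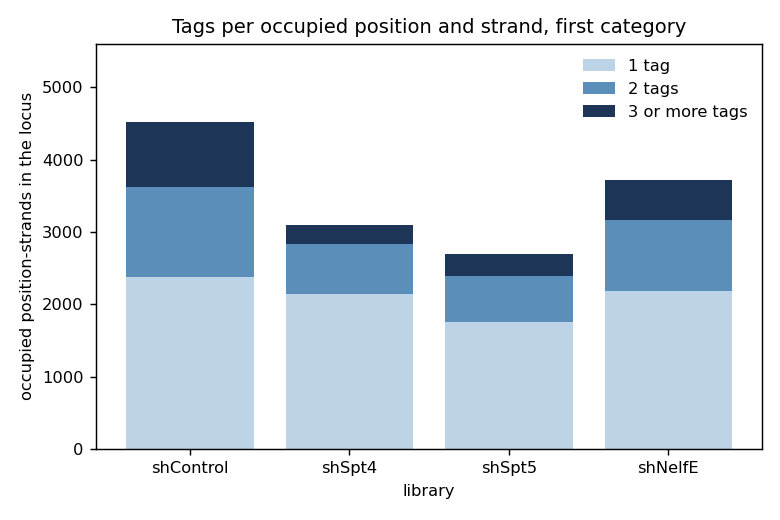
Occupied combinations of position and strand in the locus (vertical axis, count) for each library, stacked by whether they held 1, 2, or 3 or more first-category tags. The dark part, 3 or more tags, holds 904 in shControl, 545 in shNelfE, 308 in shSpt5 and 260 in shSpt4.

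If tags fall independently on the positions of a bin, the filled share gives the number of fragments behind it. This gave 6822 fragments in shControl, 5137 in shNelfE, 3963 in shSpt4 and 3342 in shSpt5. Deposited tags were 1.19, 1.17, 1.11 and 1.22 times as many. From these fragments, scaled by the total of kept tags, the ratio to shControl was 0.813 in shNelfE, 0.696 in shSpt4 and 0.498 in shSpt5. These values lay between those for kept and for all tags and nearer to the latter. The ratios for all tags are scaled by all reads instead, so this placement also depends on the scaling. Outside the locus and the mitochondrial genome, 500 bp windows with at least 200 kept tags numbered from 28 to 45 per library. Repeats made up 36.6% of their tags in shControl, 39.2% in shNelfE, 41.6% in shSpt4 and 45.0% in shSpt5. The locus was thus above such windows in shControl, close to them in shNelfE and below them in shSpt4 and shSpt5. Against the 114 to 571 windows per library with at least 100 kept tags, where repeats made up 24.4% in shControl, 30.7% in shNelfE, 29.8% in shSpt4 and 40.7% in shSpt5, it was also above them in shNelfE and close to them in shSpt4.

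The reduction was uneven along the locus, above all in shSpt5. It was deepest at 39453501 to 39454000, where normalised tags, all included, were 253 in shControl, 179 in shNelfE, 147 in shSpt4 and 79.5 in shSpt5. The ratio there was 0.314 in shSpt5 (0.275 to 0.358), 0.580 in shSpt4 (0.516 to 0.652) and 0.708 in shNelfE (0.636 to 0.787). That window had the lowest ratio in each of the 3 libraries, for kept tags as for all tags of the first category. The comparisons share the counts of shControl, so a high control count there would lower all of them. The adjacent window, 39454001 to 39454500, was close in shNelfE at 0.710 (0.640 to 0.786) and in shSpt4 at 0.588 (0.525 to 0.659), with all tags. With reads of both categories it had the lowest ratio in shNelfE, 0.704 (0.639 to 0.774).

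At the left end of the locus shSpt5 was less reduced. In the window 39451501 to 39452000 normalised tags, all included, were 212 in shControl, 192 in shNelfE, 150.3 in shSpt4 and 132 in shSpt5. The ratio was 0.622 in shSpt5 (0.554 to 0.697), 0.708 in shSpt4 (0.627 to 0.798) and 0.904 in shNelfE (0.812 to 1.01). In that window shSpt5 and shSpt4 lay close together, whereas at 39453501 to 39454000 they lay far apart.

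To set the parts side by side, reads of both categories were added, because second-category reads dominate the trough. In the stretch 39452001 to 39454000 the ratio of shSpt5 to shControl was 0.405 (0.382 to 0.428), at the left end (39451001 to 39452000) 0.615 (0.568 to 0.665), in the trough 0.741 (0.683 to 0.804) and at the right end (39456001 to 39457000) 0.489 (0.453 to 0.528). These stretches were chosen after their values were seen. The first of them relative to the trough changed by a factor of 0.546 between shControl and shSpt5 (0.494 to 0.604), by 0.780 in shSpt4 (0.704 to 0.864) and by 0.954 in shNelfE (0.865 to 1.05). With kept tags these factors were 0.626 (0.552 to 0.709), 0.795 (0.703 to 0.899) and 0.944 (0.837 to 1.07). A factor within a library does not depend on the scaling between libraries. Reads in the trough also lie on the partner copies, so it is not the chromosome 17 copy alone that is compared.

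The order of the libraries at the right end was that of 39452001 to 39454000, and in the trough shSpt4 at 0.802 (0.736 to 0.874) and shNelfE at 0.784 (0.721 to 0.852) had overlapping intervals. At the right end, all tags of both categories in shNelfE were at 0.914 of shControl (0.855 to 0.976). This was closer to shControl than its 0.747 in 39452001 to 39454000 (0.712 to 0.785). In shSpt4 the 2 values were 0.692 (0.642 to 0.746) and 0.625 (0.592 to 0.660). With the locus divided into its left 3650 bp and its right 2200 bp, the density of kept tags in the right over that in the left was 0.441 in shControl, 0.492 in shNelfE, 0.491 in shSpt4 and 0.481 in shSpt5. Against shControl this is an odds ratio of 1.12 in shNelfE (1.00 to 1.24), 1.12 in shSpt4 (0.997 to 1.25) and 1.09 in shSpt5 (0.971 to 1.23), so that a split into right and left showed at most a small shift. With all tags of both categories it was 1.14 (1.07 to 1.22), 1.13 (1.05 to 1.22) and 1.23 (1.14 to 1.32).

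**Figure D3:**
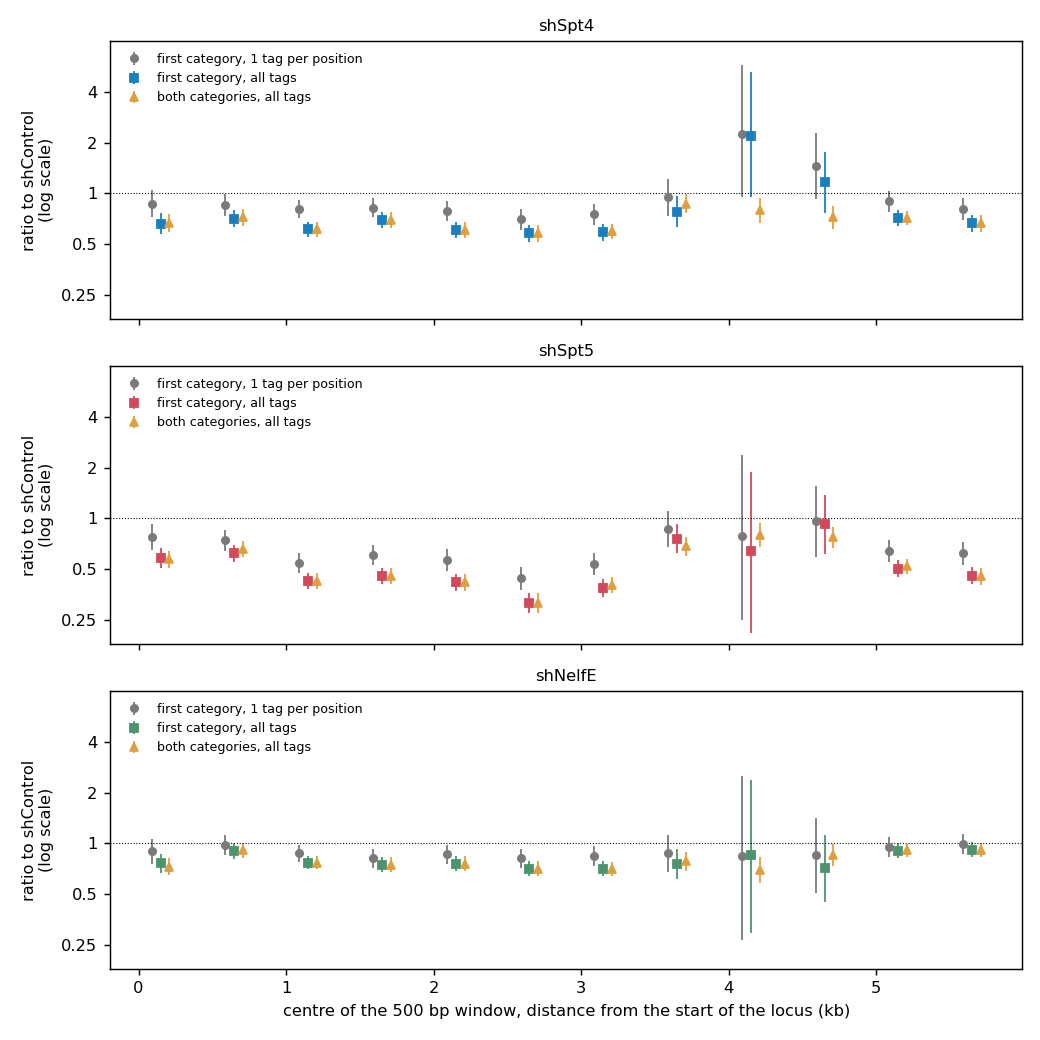
Ratio of normalised tags to shControl (vertical axes, log scale) in the 12 windows of 500 bp against the distance of their centre from the start of the locus in kb, 1 panel per knockdown library. Bars are 95% counting intervals; in shSpt5 the ratio of all tags is lowest, 0.314, in the window 39453501 to 39454000, and nearer to 1 in the trough.

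How many locus windows were reduced, set against windows elsewhere, depended on the rule. A window was called lower when its ratio of kept tags was at most 0.5 and its interval lay below 1, among windows with at least 20 kept tags in the pair of libraries. In shSpt4, 0 of 12 locus windows were called lower, beside 10.9% of windows outside the locus. In shSpt5 it was 1 of 11, beside 32.7%, and in shNelfE 0 of 11, beside 9.51%. With all tags 6 of 11 were called in shSpt5, beside 35.6%, and still 0 in shSpt4 and shNelfE, beside 13.1% and 12.1%. Without the limit on size, 7 of 12 windows in shSpt4, 9 of 11 in shSpt5 and 5 of 11 in shNelfE had an interval below 1, beside 15.8%, 42.0% and 18.3%. A window with as many tags as those of the locus has a narrow interval, which by itself raises these counts.

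With kept tags, the level of the locus followed that of other enriched windows in shSpt4 and shSpt5 but not in shNelfE. Summed over 39263 enriched windows elsewhere, the ratio to shControl was 0.772 in shNelfE (0.769 to 0.775), 0.827 in shSpt4 (0.824 to 0.830) and 0.608 in shSpt5 (0.606 to 0.610). The locus ratio divided by this was 1.15 in shNelfE (1.0996 to 1.20), 0.989 in shSpt4 (0.945 to 1.04) and 0.998 in shSpt5 (0.951 to 1.05). In shSpt4 and shSpt5 the locus did not differ from the other enriched windows beyond counting error, and in shNelfE it was less reduced. With all tags the quotient was 1.04 (1.01 to 1.08), 0.801 (0.772 to 0.831) and 0.780 (0.751 to 0.810), so that in shSpt4 and shSpt5 the locus was then more reduced than the rest. The statement for these libraries therefore rests on how repeated positions are counted. Filled positions also limit kept tags at the locus, up to 60.7% of them in 1 window of shControl. Fragments from occupancy gave locus ratios of 0.813 in shNelfE, 0.696 in shSpt4 and 0.498 in shSpt5. No such estimate is given here for the enriched windows, so kept tags alone do not settle whether the locus followed them. Of single enriched windows with at least 20 kept tags in the pair, 68.0% had a lower ratio than the locus in shNelfE, 51.5% in shSpt5 and 50.4% in shSpt4. With all tags these shares were 57.9%, 34.5% and 32.2% in the same order.

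The mitochondrial genome, also present in many copies, moved the other way. It had 893 kept tags in shControl, 1080 in shNelfE, 1323 in shSpt4 and 2056 in shSpt5. Its ratio to shControl was 1.305 in shNelfE (1.19 to 1.43), 1.77 in shSpt4 (1.63 to 1.93) and 2.34 in shSpt5 (2.16 to 2.54). Tiles with no enriched window were at 1.09, 1.08 and 1.16 in the same order. Relative to the mitochondrial genome the locus was 0.679 in shNelfE (0.615 to 0.750), 0.461 in shSpt4 (0.419 to 0.508) and 0.259 in shSpt5 (0.236 to 0.284). The locus and the enriched windows thus lay below 1, and the mitochondrial genome above 1. The cause of this difference was not tested.

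**Figure D4:**
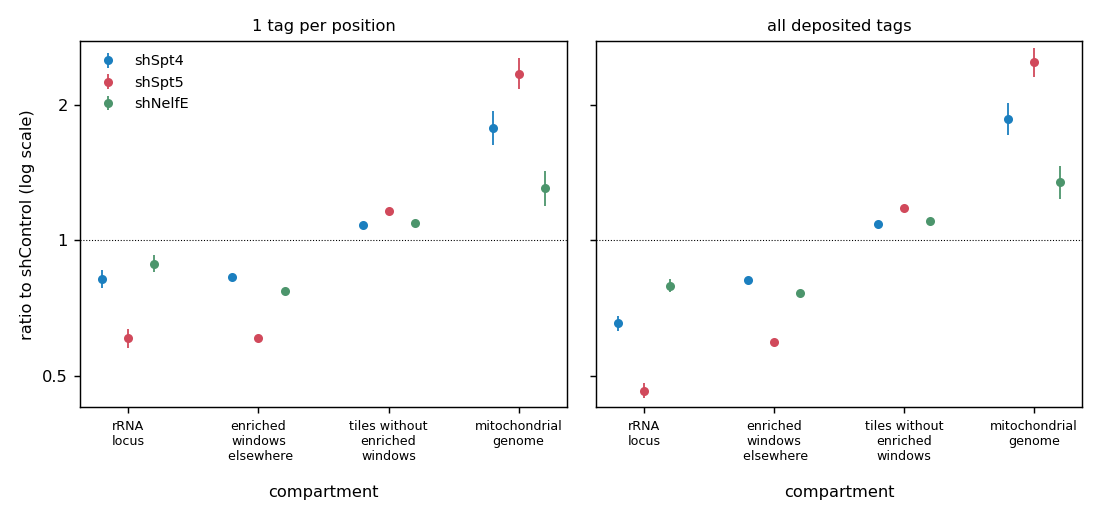
Ratio of normalised tags to shControl (vertical axis, log scale) for the locus, the other enriched windows, tiles without enriched windows and the mitochondrial genome, with kept tags at left and all deposited tags at right. Bars are 95% counting intervals; the locus lies below 1 and the mitochondrial genome above 1 in each knockdown library.

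The scaling between libraries sets the size of these reductions. Scaled by tiles without enriched windows, the ratio of kept tags at the locus was 0.812 in shNelfE (0.778 to 0.849), 0.759 in shSpt4 (0.725 to 0.795) and 0.521 in shSpt5 (0.497 to 0.547). Scaled so that the median enriched window had a ratio of 1, it was 1.12 in shNelfE (1.07 to 1.17), 0.987 in shSpt4 (0.942 to 1.03) and 0.993 in shSpt5 (0.947 to 1.04). The direction in shNelfE turned under the latter. That scaling also moved the calls elsewhere from 5693 lower and 182 higher to 1566 lower and 1114 higher in shSpt5, from 1991 and 270 to 966 and 596 in shSpt4, and from 1800 and 124 to 575 and 430 in shNelfE. The windows tested were the same under both scalings, 17402, 18201 and 18921 in that order.

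**Figure D5:**
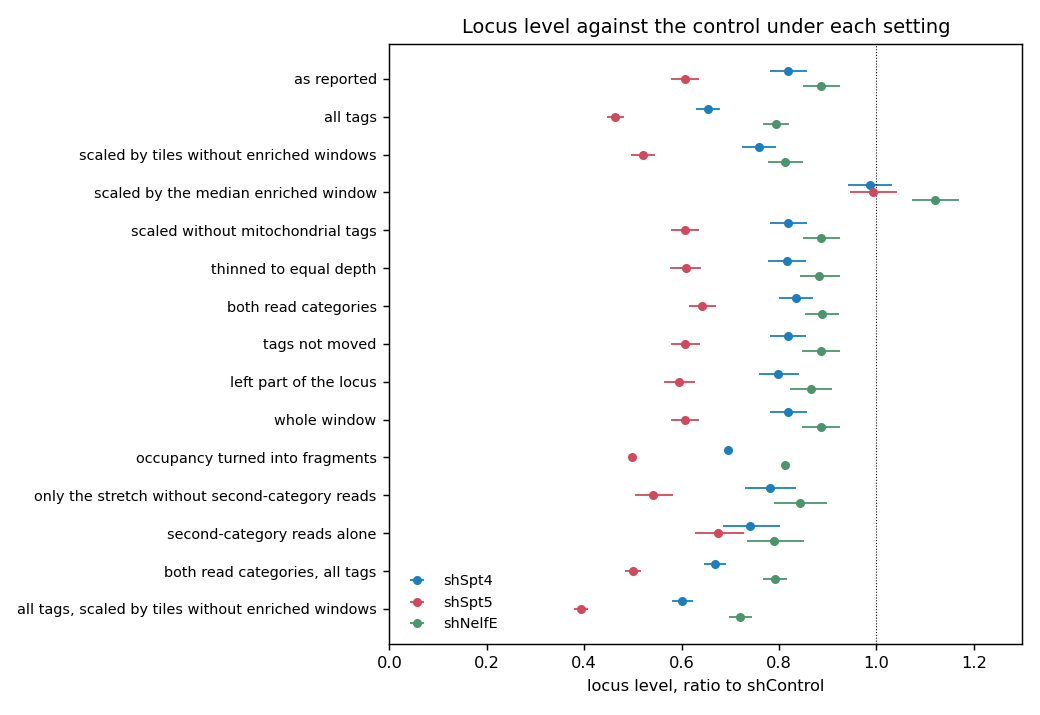
Ratio of the locus level to shControl (horizontal axis) for each knockdown library under each way of counting and scaling (vertical axis), with 95% counting intervals where the setting gives one. The shSpt5 points lie lowest in every row but the one scaled by the median enriched window, where shSpt4 is at 0.987 and shSpt5 at 0.993.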

How the data were processed

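Pol II chromatin immunoprecipitation libraries, 1 per group, were given by the authors as signed positions of aligned reads, 1 per line with the sign as strand and with no normalization, per the file headers. Reads had been aligned with Bowtie to mm8 with -e 70, -k 2, -m 2, -n 2 and -l 36, per the file headers; the aligner's version and any removal of duplicates are not given in the sources used here. The unit of these deposited values is a position, so counts per window were computed here.

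Kept tags were the distinct positions per strand. The window was 39440001 to 39470000 of chromosome 17 and the locus 39451101 to 39456950, divided at 39454750 into a left and a right part. A strand offset of 86 bp was measured on chromosomes 11 and 19, and tags were moved by 43 bp toward the fragment centre, which leaves them left of the true centre since positions mark the left end of a read. Ratios have exact 95% intervals from the binomial distribution of 1 library's tags given the pair's sum; odds ratios have exact conditional intervals, and quotients against other compartments have intervals from the normal approximation on the log scale. Enriched windows of 500 bp were called on the libraries thinned to 2646944 tags and pooled, at a Poisson p of 1e-9 against the mean density. Windows called lower needed at least 20 tags in the pair. The interval and call functions were tested on simulated independent counts per window. Crowded positions and PCR copies were not simulated, so the test does not cover them. Python 3.11.15, numpy 2.4.6, scipy 1.17.1 and pandas 2.3.3 were used. The named bins were the 5 with most normalised tags. No p-value was computed, since 1 library per group allows no test of conditions. The locus, its boundaries and the lists were chosen with earlier results of these data known. The background library of whole cell extract was not used here, and no sequence of the locus is printed.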

Additional observations from a re-analysis of the deposited data

How the results depend on the processing

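Each group had 1 library, and the intervals leave out the spread between cultures. Crowded positions and the scaling also limit the locus values. No paired analysis was possible because each group has 1 library. Moving tags or not, the left part or the whole window, equal depth and leaving out mitochondrial tags kept every locus ratio within its interval. All values in this paragraph follow the order shSpt4, shSpt5 and shNelfE over shControl, then shSpt5 over shSpt4, shNelfE over shSpt4 and shNelfE over shSpt5. All tags gave 0.654, 0.463 and 0.793, then (0.708) 1.21 and 1.71. Scaling by tiles without enriched windows gave 0.759, 0.521 and 0.812, then 0.687 (1.07) and 1.56. Scaling by the median enriched window gave 0.987 and 0.993, and turned shNelfE to 1.12 and shSpt5 over shSpt4 to 1.01, with 1.13 for shNelfE over shSpt5; the construction of this scaling puts the median enriched window at 1. Fragments from occupancy gave 0.696, 0.498 and 0.813, then (0.716) 1.17 and 1.63. Both read categories gave 0.643 for shSpt5 over shControl and 1.38 for shNelfE over shSpt5.

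The following were chosen after seeing the data. All tags scaled by tiles without enriched windows gave 0.602, 0.393 and 0.721, then 0.653, 1.20 and 1.83. Both categories with all tags gave 0.668, 0.499 and 0.792, then (0.747) 1.18 and 1.58, and 1.23 for the right over the left part in shSpt5. Second-category reads alone gave 0.741, 0.676 and 0.790, then 0.912 (1.07) and 1.17. The stretch with no second-category read gave 0.542 in shSpt5 and 0.843 in shNelfE, then 0.693 and 1.55 for shSpt5 over shSpt4 and shNelfE over shSpt5.

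Windows outside the locus called lower numbered 1991 in shSpt4, 5693 in shSpt5 and 1800 in shNelfE. These are 10.9%, 32.7% and 9.51% of the windows tested. By the median enriched window they were 966, 1566 and 575, with at least 50 tags 529, 2130 and 591, and by tiles without enriched windows 2822 in shNelfE. On the interval alone they were 3456 in shNelfE (18.3%). Within the locus, shSpt5 had 1 of 11 windows called lower. With all tags it had 6 of 11, beside 35.6% of windows outside the locus. By tiles without enriched windows shSpt5 had 4 of 11 (36.4%), beside 7650 of 17402 outside (43.96%), so the locus share was then the lower. By the median enriched window it had 0 of 11, beside 1566 of 17402 outside. On the interval alone shSpt5 had 9 of 11, beside 42.0% outside, and shSpt4 had 7 and shNelfE 5 locus windows. The limit of 50 tags left fewer windows to test, and the interval alone dropped the limit on size. Apart from these rules and the median scaling, the cause of the changes was not tested.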

Other observations

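Occupied positions of the locus were only partly the same in the libraries, though shared more often than the filled share of each library. Kept tags occupied 6910 of the 11700 position-strands in at least 1 library, which is 59.1%. Of these, 474 (6.86%) were occupied in all 4. Of the positions of shControl, 51.9% were also occupied in shNelfE, 42.4% in shSpt4 and 37.1% in shSpt5. These libraries filled 31.8%, 26.4% and 23.0% of all position-strands of the locus. Seen from the other side, 63.2% of the positions of shNelfE, 62.1% of those of shSpt4 and 62.3% of those of shSpt5 were occupied in shControl. That library filled 38.6% of all position-strands. The filled shares also count positions where no first-category read was listed in any library.

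The 5 enriched windows elsewhere whose 3 ratios to shControl lay nearest to those of the locus were picked from 12683 windows with at least 50 kept tags in the 4 libraries together. The nearest was on chromosome 13, 38666001 to 38666500, with 71 kept tags in shControl, 49 in shSpt4, 42 in shSpt5 and 57 in shNelfE, and a distance of 0.037 on the log2 scale over the 3 ratios. The window at 109508501 to 109509000 on chromosome 8 was next. After it came 121465001 to 121465500 on chromosome 5, then 162968001 to 162968500 on chromosome 1, and last 32976001 to 32976500 on chromosome 16, at a distance of 0.054. These windows held from 17 to 109 kept tags per library, so their ratios are far less precise than those of the locus, and among so many candidates some lie near any typical set of ratios.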
